A study of Mus musculus with 5 samples.

Results

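The 14-3-3 protein family was followed through RNA sequencing of mouse macrophages given an inhibitor of serine synthesis or solvent before interleukin 4 (IL-4), a cytokine of alternative activation. The family was taken as 6 named genes, Ywhab, Ywhae, Ywhag, Ywhah, Ywhaq and Ywhaz, out of 49315 genes with a transcript in every library, and all 6 passed the filter on low values. The level of a gene was the sum over all its transcripts of the deposited FPKM, which counts fragments per kilobase of transcript relative to all fragments mapped in that library. The family was chosen by the FPKM of Ywhaq, which an earlier sum over these same libraries had put higher with the inhibitor, so the members' levels and differences are given as a description and without a test.

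All macrophages were grown for 6 days from bone marrow of wild-type C57BL/6 mice, and 96% of the cells carried both macrophage surface proteins used to check them, per the labels' protocols. In the IL4+CBR-5884 group (3 libraries, replicates 3, 4 and 5) the cells received 30 µM of CBR-5884, an inhibitor of PHGDH, the first enzyme of serine synthesis from glucose, before 10 ng/ml IL-4 for 24 h. In the IL4+solvent group (2 libraries, replicates 3 and 5) solvent took the place of the inhibitor and IL-4 was given in the same way. Every group therefore carries IL-4, and cells without it were not analysed here. The labels give neither the age nor the sex of the mice and leave unsaid if a replicate is an animal, a culture or a repeat preparation. They also name 2 alternative sources of growth factor for the marrow cultures without assigning them to libraries. Any p-value below therefore measures the spread between these libraries, which may be technical.

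The coverage values imply 30390000, 30230000 and 30700000 fragments in the CBR-5884 libraries and 28850000 and 28310000 in the solvent libraries. Across the genes tested, Pearson's r lay between 0.925 and 0.937 for libraries of a group and between 0.911 and 0.928 for libraries of different groups. All 8 macrophage markers were above 0 in every library, and Adgre1 was at 299.4 to 338.4 FPKM. Cd68 (1292 to 1334 FPKM with CBR-5884, 1148 to 1150 FPKM with solvent) and Itgam (198.9 to 221.3 FPKM with CBR-5884, 157.9 to 181.8 FPKM with solvent) were higher in every CBR-5884 library, and Cd14 (14.6 to 17.0 FPKM with CBR-5884, 18.5 to 19.5 FPKM with solvent) and Fcgr1 (6.85 to 11.6 FPKM with CBR-5884, 12.5 to 13.3 FPKM with solvent) were lower in every one. These 2 higher and 2 lower of 8 markers stand beside 16.6% higher and 24.9% lower without overlap among all 10776 genes tested. The summed level of the 8 markers, most of it Lyz2, was 9743 to 13080 FPKM with CBR-5884 and 11010 to 13090 FPKM with solvent. All 3 T cell markers and all 3 erythroid markers were listed at 0 in every library, and the 3 B cell markers summed to at most 0.116 FPKM. The summed neutrophil markers lay at 10.3 to 12.7 FPKM with CBR-5884 and 9.38 to 19.6 FPKM with solvent, with Ly6g listed at 0 throughout. The dendritic cell markers summed to 0.412 to 0.604 FPKM with CBR-5884 and to 0.798 to 1.36 FPKM with solvent. The fibroblast markers summed to 10.8 to 17.1 FPKM with CBR-5884 and 17.9 to 18.9 FPKM with solvent. Both sums were lower in every CBR-5884 library, as were 24.9% of all genes tested. None of the 3 dendritic cell markers reached a mean of 1 FPKM, and only 2 of the 5 fibroblast markers did. The part of these cells in the values below was not tested. In bulk RNA, fewer cells of a type and less RNA per cell cannot be told apart.

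The 14-3-3 proteins are small acidic adaptors that work as dimers. Each subunit of a dimer holds a groove that binds phosphorylated serine or threonine in a partner protein, and binding changes where the partner lies, which of its surfaces are exposed or how active it is. Kinases such as AKT, SGK and AMPK write these sites and phosphatases remove them, so the family reads out growth factor, nutrient and stress signals. In macrophages, as in other cells, known partners include the forkhead factors FOXO1 and FOXO3, the death protein BAD, the mRNA decay factor tristetraprolin and the lysosomal transcription factor TFEB.

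The members are close copies of one another, which matters for reads of 75 bases. A stretch of 60 coding bases is shown for each of them, where 38 of the 60 positions are the same in all 6 genes; capitals mark the bases that differ from Ywhaq. The sequences come from the GENCODE M21 transcripts (GRCm38).
Ywhaq: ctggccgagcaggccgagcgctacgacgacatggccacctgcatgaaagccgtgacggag
Ywhah: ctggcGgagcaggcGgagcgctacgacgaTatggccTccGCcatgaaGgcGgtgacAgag
Ywhag: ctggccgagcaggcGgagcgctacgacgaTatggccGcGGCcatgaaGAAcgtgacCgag
Ywhaz: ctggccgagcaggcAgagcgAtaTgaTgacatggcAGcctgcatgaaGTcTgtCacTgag
Ywhab: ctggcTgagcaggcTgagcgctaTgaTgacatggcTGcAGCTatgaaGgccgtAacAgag
Ywhae: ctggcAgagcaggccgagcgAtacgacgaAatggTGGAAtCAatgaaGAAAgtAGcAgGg
Against Ywhaq, Ywhah differs at 9 of these positions, Ywhag at 10, Ywhaz at 11, Ywhab at 13 and Ywhae at 18. Over the whole coding sequences, of 735 to 765 bases, identity between members ran from 65.9% for Ywhae with Ywhaq to 79.0% for Ywhag with Ywhah, and the longest run of identical bases in any pair was 30. No run of 75 bases was shared between members, so a read that matches without mismatch could not come from 2 of them.

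Reads can still be shared with pseudogenes. Of the 2036 distinct runs of 75 bases in the main Ywhaq transcript, 640 (31.4%) also occurred in another gene, 509 of them in the processed pseudogene Gm2423 and 504 in Ywhaq-ps3. The share was 18.5% for Ywhaz, nearly all of it with the pseudogene Gm4202, and 12.1% for Ywhah, all of it with Gm12428. It was 0 for Ywhab, Ywhae and Ywhag. The pseudogene copies with a value were at no more than 0.427 FPKM for any copy of Ywhaq, 0.236 FPKM for Ywhah and 0.134 FPKM for Ywhaz. Of 8 Ywhaq copies found, 7 had a value, and the level of Gm21178 is not known. How the deposited values split reads between a gene and such copies is not given in the sources used here, so the levels of Ywhaq, Ywhaz and Ywhah carry that uncertainty. Of the same 640 runs, 333 occur in Cdk5rap2, a centrosome gene at 1.65, 3.01 and 3.05 FPKM with CBR-5884 and 1.69 and 1.78 FPKM with solvent. The antisense gene Gm4419 overlaps 248 exonic bases of Ywhaq on the opposite strand and was listed at 0.113 to 0.222 FPKM with CBR-5884 and 0.0867 to 0.116 FPKM with solvent.

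All 6 genes were well expressed in both groups. Together they summed to 884.0, 884.2 and 964.5 FPKM in CBR-5884 replicates 3, 4 and 5, against 771.5 and 785.7 FPKM in solvent replicates 3 and 5. This order of replicates is kept for all values below. The family sum was 911 ± 46.4 FPKM with CBR-5884 (SD, n = 3) and 779 ± 10.0 FPKM with solvent (SD, n = 2), and every CBR-5884 library lay above both solvent libraries. This sum was worked out only in FPKM over all transcripts. The differences of Ywhah, Ywhaz and Ywhab were smaller in fragments not divided by length, and turned with annotated reference transcripts only, as given below.

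Over all 5 libraries the order of the levels was Ywhah (mean 234 FPKM, range 191.5 to 270.0), Ywhaz (204 FPKM, range 171.9 to 260.5), Ywhae (132 FPKM, range 123.0 to 144.9), Ywhab (116 FPKM, range 104.3 to 123.9), Ywhag (107 FPKM, range 103.2 to 112.2) and Ywhaq (65.6 FPKM, range 63.7 to 67.2). These are levels per length. By mean level among all genes, Ywhah ranked 302 and Ywhaq ranked 1140. The order was kept in every library between Ywhaz and Ywhae, between Ywhae and Ywhab, and between Ywhag and Ywhaq. Ywhah lay above Ywhaz in 4 of 5 libraries, so those neighbours were not separated beyond the spread between libraries. Ywhab lay above Ywhag in all 3 CBR-5884 libraries, and in the 2 solvent libraries the pair was nearly level, at 104.3 and 104.9 FPKM for Ywhab and 104.3 and 105.5 FPKM for Ywhag. Sfn, the epithelial 14-3-3 protein that p53 induces, is the remaining gene of the family in mouse and was near the limit of the filter, at 1.24, 1.80 and 1.65 FPKM with CBR-5884 and 1.80 and 1.49 FPKM with solvent.

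**Figure D1:**
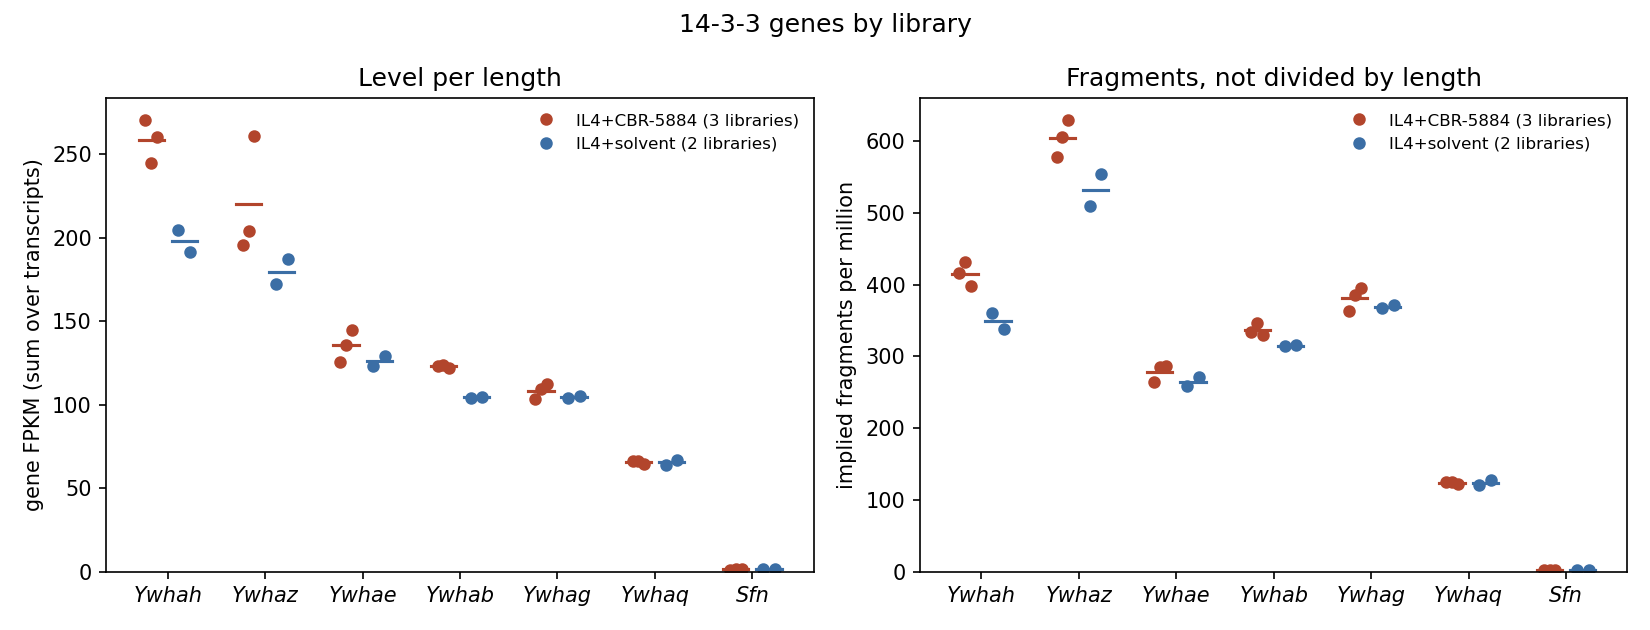
Level of each 14-3-3 gene in each library as gene FPKM (left) and as implied fragments per 1000000 mapped fragments (FPM), which are not divided by transcript length (right); points are libraries, red for IL4+CBR-5884 and blue for IL4+solvent, and lines are group means. The CBR-5884 points of Ywhah, Ywhaz and Ywhab lie above both solvent points in both panels. Those of Ywhaq, at 64.5 to 66.2 FPKM, lie between the solvent points, at 63.7 and 67.2 FPKM.

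Within this sum the members did not move alike. Ywhah held 30.5%, 27.7% and 27.0% of the family FPKM with CBR-5884, against 26.5% and 24.4% with solvent. Ywhaq held 7.49%, 7.49% and 6.69% with CBR-5884, against 8.26% and 8.56% with solvent. The shares of Ywhag (11.6% to 12.4% with CBR-5884, 13.4% to 13.5% with solvent) and Ywhae (14.2% to 15.4% with CBR-5884, 15.9% to 16.5% with solvent) were also lower in every CBR-5884 library. The shares of Ywhab and Ywhaz overlapped between the groups. All of these are shares of FPKM, which divides by transcript length, and shares of FPM were not worked out. In FPM the difference of Ywhah between the groups was smaller, as given below, so its share need not be higher by that measure. Shares add to a whole, so a higher share of any member lowers those of others.

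The differences below are log2 differences of FPKM + 1, CBR-5884 minus solvent, with their standard error from a limma fit across the 10776 genes with a mean of at least 1 FPKM. The groups did not overlap for 3 of the 6 members, Ywhah, Ywhaz and Ywhab, all of them higher with CBR-5884. Over all genes tested the groups did not overlap for 41.5%, with 16.6% higher and 24.9% lower with CBR-5884. Over all transcripts 6 of 6 members were positive, with Ywhaq at 0.0039 (SE 0.046), beside 4770 positive of 10776 genes tested. Ywhab, Ywhah, Ywhae and Ywhaz were negative with reference transcripts only. Over all transcripts the median difference of the 6 members was 0.17, beside -0.03 over all genes tested. At a limma adjusted p below 0.05 (Benjamini-Hochberg), 24 genes, or 0.223%, were called, 5 higher and 19 lower, and 17 of these 24 were listed at 0 in all libraries of 1 group. Without solvent replicate 3 the count was 94, and without solvent replicate 5 it was 64. Because the members were chosen with this contrast known, they were not tested, and nothing is read from their counts. At an unadjusted p below 0.05, 780 genes were higher and 1336 lower with CBR-5884, and this split depended on the scale: it was 1142 and 947 on a TPM scale, 1037 and 1061 with libraries scaled by median ratios, and 1163 and 945 after quantile normalization.

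Ywhah, the eta form, had the largest log2 difference of the 6. It was at 270.0, 244.5 and 260.2 FPKM with CBR-5884, against 204.2 and 191.5 FPKM with solvent (258 ± 12.9, SD, n = 3, and 198 ± 9.03, SD, n = 2). All 3 CBR-5884 libraries were above both solvent libraries, with a log2 difference of 0.38 (SE 0.063). Ywhab, the beta form, was at 123.3, 123.9 and 122.1 FPKM with CBR-5884, against 104.3 and 104.9 FPKM with solvent. Its libraries were nearly level within each group and apart between them, with a log2 difference of 0.23 (SE 0.038). Ywhaz, the zeta form and the member most often studied as a survival factor, was at 195.6, 204.0 and 260.5 FPKM with CBR-5884, against 171.9 and 187.2 FPKM with solvent. CBR-5884 replicate 5 stood above the other 4 libraries, and the log2 difference of 0.28 (SE 0.14) was 0.16 without it.

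Ywhae, the epsilon form, which prefers partners from other members when it forms dimers, was at 125.6, 135.9 and 144.9 FPKM with CBR-5884, against 123.0 and 129.3 FPKM with solvent. Ywhag, the gamma form, was at 103.2, 109.6 and 112.2 FPKM with CBR-5884, against 104.3 and 105.5 FPKM with solvent. The groups overlapped for both genes, with log2 differences of 0.10 (SE 0.076) and 0.04 (SE 0.053). With libraries scaled by median ratios, the groups no longer overlapped for either gene, and both were higher with CBR-5884; on that scale 41.7% of all genes tested did not overlap, 20.9% higher and 20.8% lower. Ywhaq, the theta form (also called tau, and first described in T cells), was at 66.2, 66.2 and 64.5 FPKM with CBR-5884, against 63.7 and 67.2 FPKM with solvent. The solvent libraries lay on both sides of the CBR-5884 libraries, and the log2 difference was 0.0039 (SE 0.046). Sfn differed by -0.05 (SE 0.15), with overlapping groups.

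FPKM divides by transcript length, and the transcripts that carry a gene's reads differed between libraries, so the same genes were also summed as fragments per 1000000 mapped fragments (FPM) without that division. On that measure Ywhah was at 416.3, 431.3 and 398.3 FPM with CBR-5884, against 360.3 and 337.8 FPM with solvent, a log2 difference of 0.25 (SE 0.057). Ywhaz was at 577.6, 606.0 and 628.5 FPM with CBR-5884, against 509.3 and 553.6 FPM with solvent, a log2 difference of 0.18 (SE 0.063). CBR-5884 replicate 5 no longer stood far from the others. Ywhab was at 334.0, 347.1 and 330.0 FPM with CBR-5884, against 314.2 and 316.1 FPM with solvent, a log2 difference of 0.10 (SE 0.046). The same 3 members as before were without overlap and higher, with smaller differences than in FPKM; by this measure 45.6% of all genes tested did not overlap, made up of 18.0% of the genes tested that were higher and 27.6% that were lower with CBR-5884. The differences of Ywhae, at 0.07, Ywhag, at 0.04, and Ywhaq, at 0.0036, stayed within overlapping groups.

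**Figure D2:**
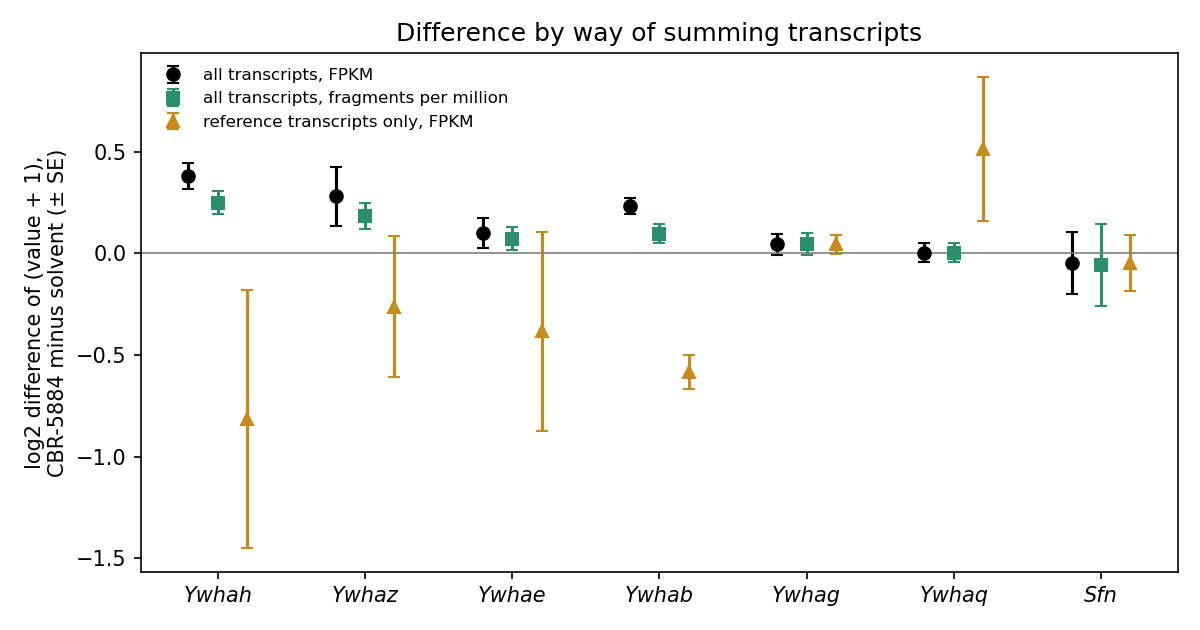
Log2 difference of (value + 1), CBR-5884 minus solvent, for each gene by 3 ways of summing transcripts: all transcripts in FPKM (black), all transcripts in FPM (green) and reference transcripts only in FPKM (yellow); bars are the limma standard error, with 3 and 2 libraries. Ywhah, Ywhaz, Ywhae and Ywhab are above 0 with all transcripts and below 0 with reference transcripts only, where Ywhah is at -0.82, and Ywhaq moves from 0.0039 to 0.51.

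Besides annotated reference transcripts, each deposited file lists transcripts assembled anew by Cufflinks from the reads of that library. Those assigned to any gene numbered 5634, 5598 and 5602 in the CBR-5884 libraries, against 5722 and 5813 in the solvent libraries. The assembled transcript of Ywhaq was listed in solvent replicate 3 alone. For Ywhab, Ywhah, Ywhae and Ywhaz, assembled transcripts were found mainly in the CBR-5884 libraries. With reference transcripts alone the direction of these 4 genes turned: the log2 difference was -0.58 (SE 0.083) for Ywhab, -0.82 (SE 0.64) for Ywhah, -0.38 (SE 0.49) for Ywhae and -0.26 (SE 0.35) for Ywhaz. Only Ywhab was then without overlap, and lower with CBR-5884; among all genes tested 35.3% did not overlap on reference transcripts, made up of 13.9% that were higher and 21.4% that were lower with CBR-5884. Ywhag (ENSMUSG00000051391, chr5:135908409-135934616, minus strand) had no assembled transcript in any library, so Ywhag-201 held all of its FPKM, and its 0.04 was the same by both sums.

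Ywhab (ENSMUSG00000018326, chr2:163994960-164018588, plus strand, GRCm38) has 1 reference transcript in the files, Ywhab-201, with 6 exons. It was at 67.5, 76.7 and 65.0 FPKM with CBR-5884, against 104.3 and 104.9 FPKM with solvent. An assembled transcript added 55.8, 47.3 and 57.1 FPKM in the CBR-5884 libraries and was not listed in the solvent libraries. It thus held 45.2%, 38.2% and 46.8% of the gene's FPKM with CBR-5884. In each of the 3 libraries this transcript lacks the first 2 reference exons, which hold the coding start, and begins with an exon of 37, 31 or 48 bases inside the preceding intron, ending at the same base, position 164013137 of chromosome 2. From there it shares the last 4 exons with Ywhab-201.

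Ywhah (ENSMUSG00000018965, chr5:33018816-33027966, plus strand) has 2 exons. Its reference transcript Ywhah-201 was at 81.8, 244.5 and 69.8 FPKM with CBR-5884, against 204.2 and 191.5 FPKM with solvent. In CBR-5884 replicates 3 and 5 an assembled transcript of 188.2 and 190.4 FPKM held 69.7% and 73.2% of the gene. Both replace the first exon by one of 20 bases inside the intron, but at different places, positions 33019743 to 33019762 in replicate 3 and 33021568 to 33021587 in replicate 5. CBR-5884 replicate 4 had no assembled transcript, and the gene was at 244.5 FPKM there, above both solvent libraries. The part of the assembled transcripts in the difference of Ywhah was not tested.

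Ywhae (ENSMUSG00000020849, chr11:75732869-75765845, plus strand) showed an assembled transcript in CBR-5884 replicate 5 alone. It was at 92.6 FPKM, or 63.9% of the gene in that library, beside 52.3 FPKM on the reference transcript Ywhae-201. An exon of 38 bases inside the first intron again takes the place of the first exon. The other 4 libraries held Ywhae-201 alone, at 125.6 and 135.9 FPKM with CBR-5884 and 123.0 and 129.3 FPKM with solvent.

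Ywhaz (ENSMUSG00000022285, chr15:36770770-36796929, minus strand) was the most varied. Assembled transcripts held 30.6, 45.1 and 173.9 FPKM with CBR-5884, against 0 and 42.2 FPKM with solvent. Those of CBR-5884 replicates 3 and 4 and of solvent replicate 5 share the exons of the reference transcript Ywhaz-204 and run on past the annotated 3′ end of the gene. That of CBR-5884 replicate 5 has 5 exons, begins with an exon of 35 bases inside an intron and lacks the exon with the coding start. In the same library the reference transcript Ywhaz-201 was listed at 0, while CBR-5884 replicates 3 and 4 had 99.3 and 92.5 FPKM of it and the solvent libraries 124.1 and 81.8 FPKM. Ywhaz-204 was at 65.8, 66.4 and 86.6 FPKM with CBR-5884, against 47.8 and 63.2 FPKM with solvent. It was the one annotated form above 0 in all 5 libraries, and Ywhaz-203 was listed at 0 in all of them.

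**Figure D3:**
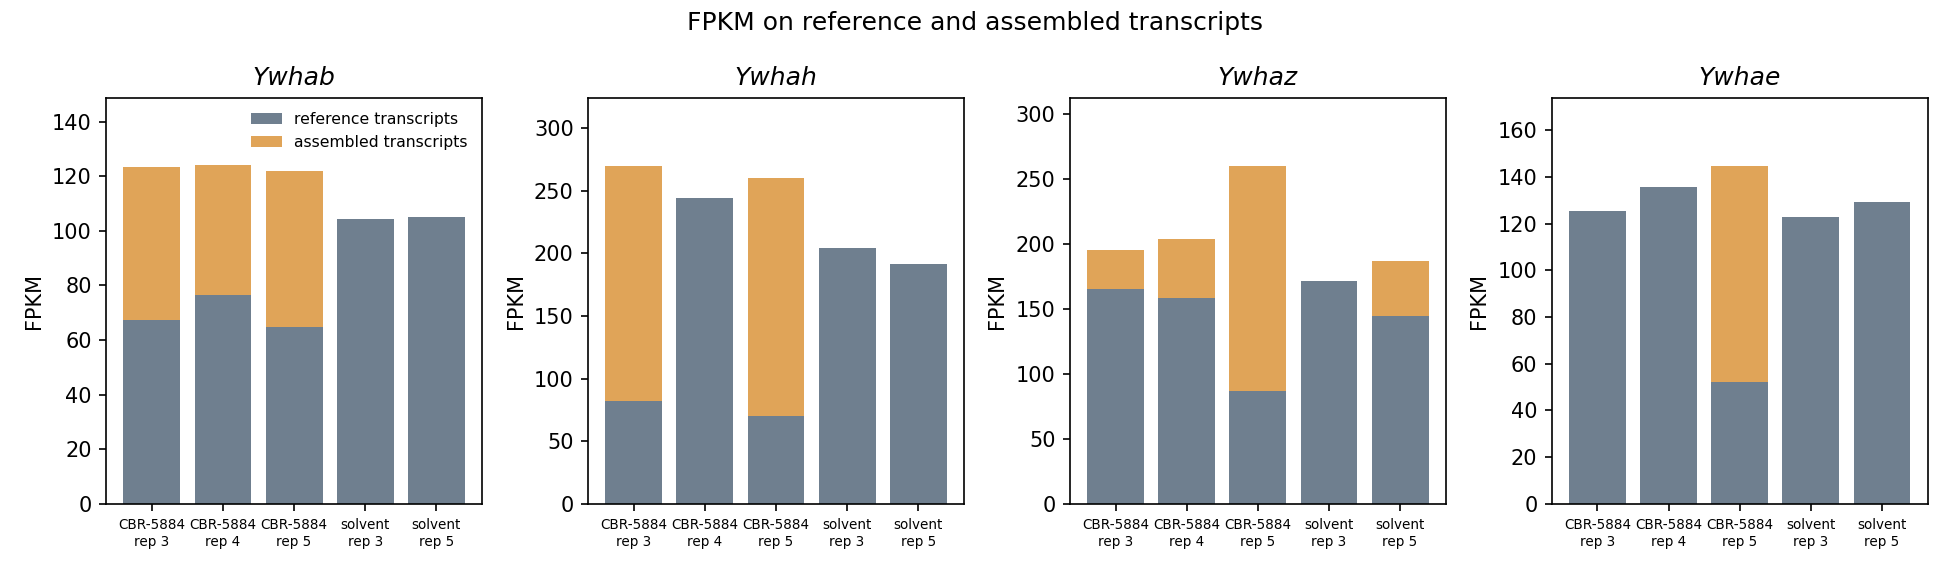
Gene FPKM in each library, stacked by reference transcripts (grey) and assembled transcripts (orange), for the 4 members with assembled transcripts in CBR-5884 libraries; each panel has its own axis from 0. Ywhab carries an orange part of 47.3 to 57.1 FPKM in all 3 CBR-5884 libraries and none with solvent, Ywhah carries one in CBR-5884 replicates 3 and 5, Ywhae in replicate 5 alone, and that of Ywhaz is largest in CBR-5884 replicate 5.

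**Figure D4:**
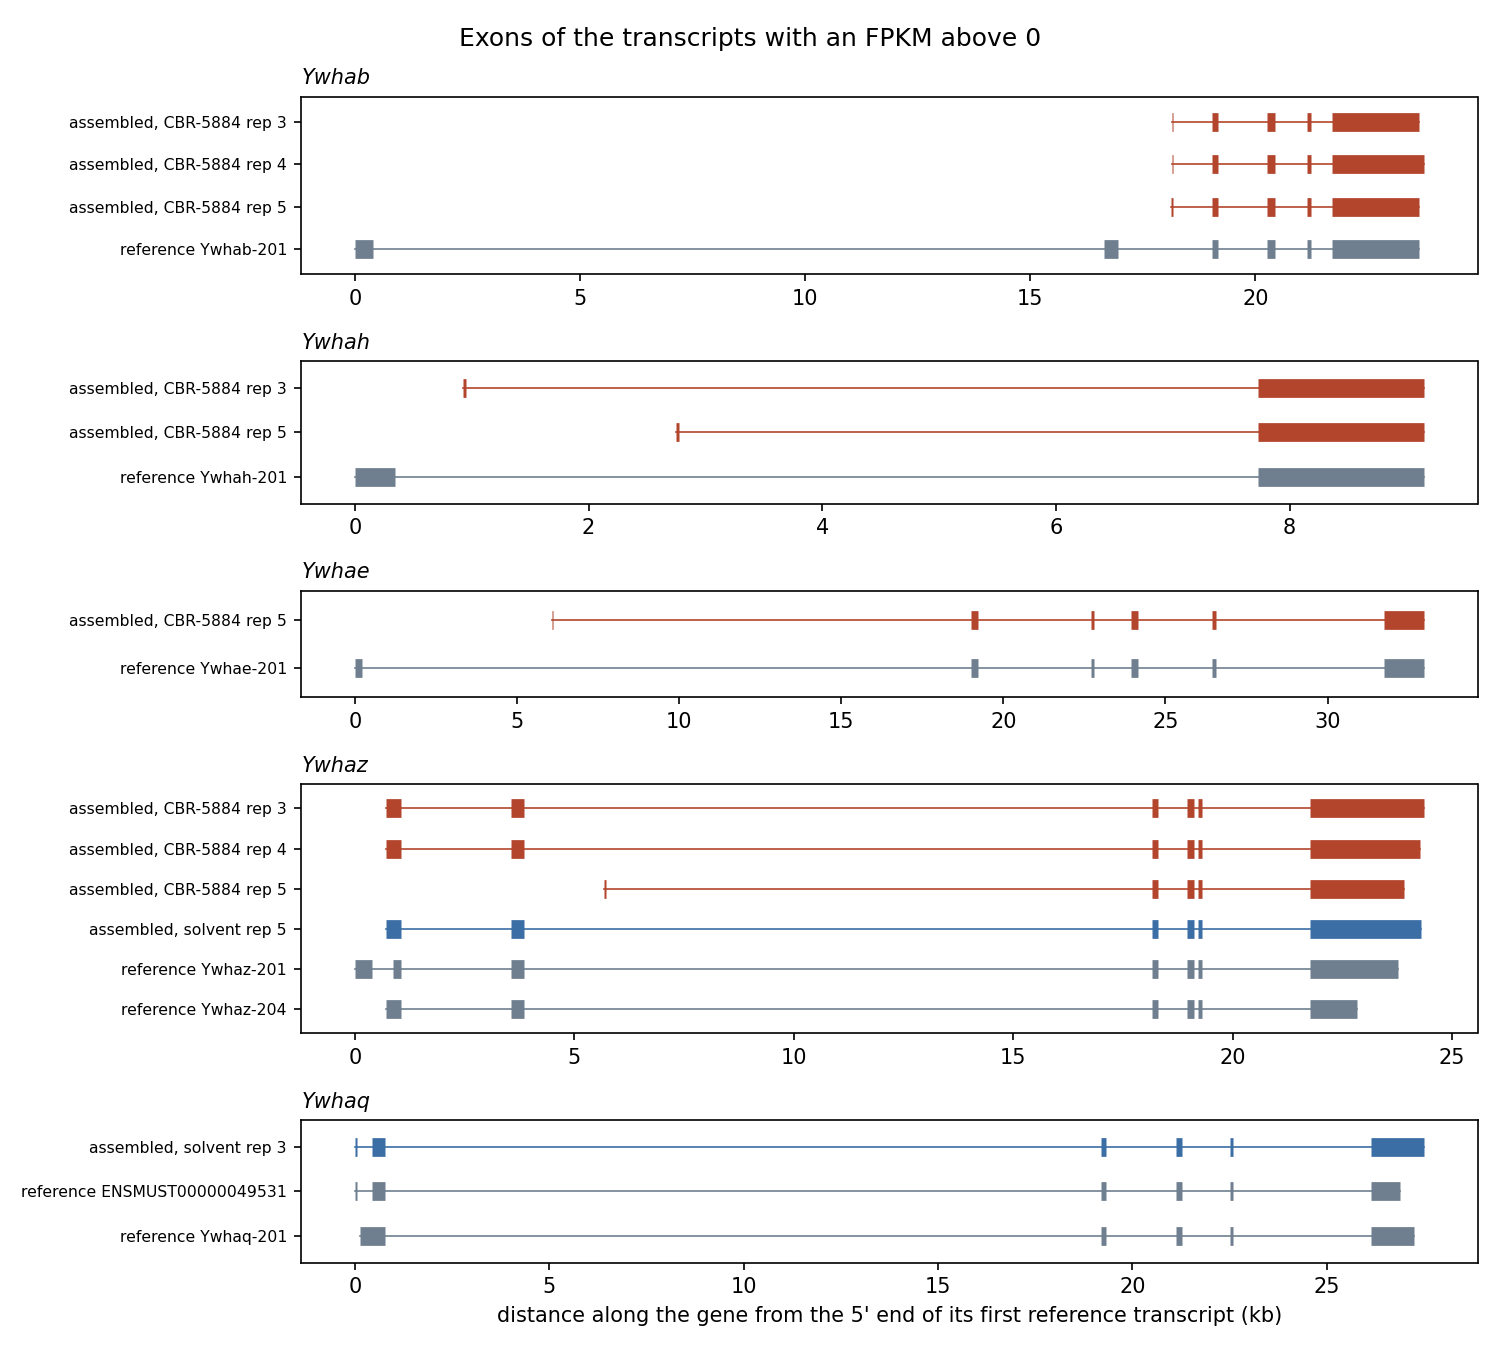
Exons (boxes) and introns (lines) of the transcripts above 0 FPKM, drawn 5′ to 3′ by distance in kb from the first base of the earliest reference transcript, with CBR-5884 in red, solvent in blue and reference in grey; scales differ between genes. The assembled forms of Ywhab, Ywhah and Ywhae and that of Ywhaz in CBR-5884 replicate 5 begin inside an intron with exons of 20 to 48 bases, and the assembled form of Ywhaq has the 6 exons of the second reference transcript with a longer 3′ end.

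Ywhaq (ENSMUSG00000076432, chr12:21390071-21417637, minus strand) had a steady sum made of changing parts. Its forms share their coding exons and differ at the 5′ and 3′ ends. The 5-exon form Ywhaq-201 (ENSMUST00000103002, 2110 bases) begins with an exon of 639 bases. It was at 41.8, 41.3 and 42.7 FPKM with CBR-5884, against 6.73 and 43.1 FPKM with solvent. Solvent replicate 3 stood apart from the other 4 libraries, and its 95% interval in the deposited file, 5.74 to 7.72 FPKM, lay far from that of solvent replicate 5, 40.3 to 45.8 FPKM. The 6-exon reference form ENSMUST00000049531 (1515 bases) begins with an exon of 57 bases. It was at 24.4, 25.0 and 21.8 FPKM with CBR-5884, against 24.2 and 24.2 FPKM with solvent, with overlapping groups. An assembled 6-exon form of 2132 bases, with the same first exon and a longer 3′ end, was listed in solvent replicate 3 alone at 32.8 FPKM.

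Reference transcripts thus held all of Ywhaq in 4 libraries and 30.9 of 63.7 FPKM in solvent replicate 3. The 6-exon forms together made up 36.8%, 37.7% and 33.8% of Ywhaq FPKM with CBR-5884, against 89.4% and 36.0% with solvent. Solvent replicate 5 lay within the CBR-5884 range, so the gap between the groups in this share rests on solvent replicate 3. As a share of fragments it was 29.5%, 30.3% and 26.8% with CBR-5884, against 88.3% and 28.7% with solvent. On reference transcripts alone the gene's log2 difference was 0.51 (SE 0.36), and on Ywhaq-201 alone it was 1.22 (SE 0.81), both with overlapping groups. Over all transcripts it was 0.0039, as above.

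The gene identifiers in the files bear on the same sum. ENSMUST00000049531 is not in the GENCODE M21 annotation, and it carries the Ensembl gene identifier of Ywhaq in the 3 CBR-5884 files but an identifier made by the assembler in both solvent files. If it is counted only where the file gives the Ensembl identifier, Ywhaq is at 66.2, 66.2 and 64.5 FPKM with CBR-5884, against 39.5 and 43.1 FPKM with solvent (65.6 ± 0.989, SD, n = 3, and 41.3 ± 2.49, SD, n = 2), a log2 difference of 0.66. With the transcript assigned to Ywhaq in all 5 libraries, as in every other value here, the groups overlapped.

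**Figure D5:**
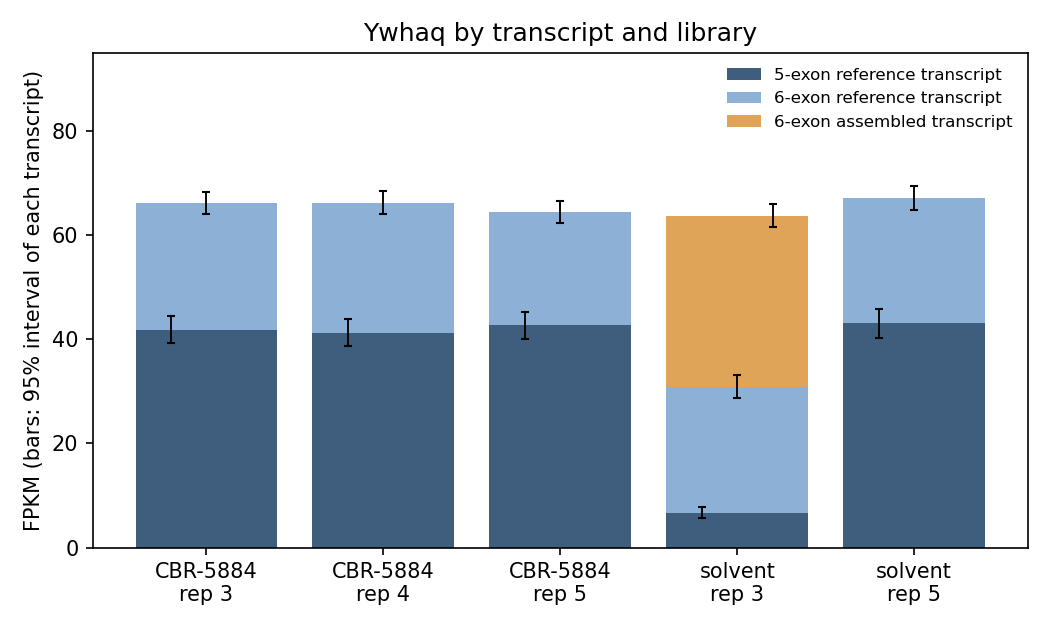
Ywhaq FPKM in each library, stacked by transcript: the 5-exon reference form (dark blue), the 6-exon reference form (light blue) and the 6-exon assembled form (orange); bars are the 95% interval of each transcript in the deposited files. The totals lie between 63.7 and 67.2 FPKM in all 5 libraries, and in solvent replicate 3 the 5-exon form is at 6.73 FPKM beside an assembled form of 32.8 FPKM.

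The first bases of both Ywhaq forms lie within the promoter window of the gene, 124 bases apart. The window is given because the share of the forms differed between libraries. It is chr12:21417387-21417686 on the minus strand (RefSeq, GRCm38.p6), read 5′ to 3′, and capitals mark the first 5 bases of the 6-exon form (AAAGC) and of the 5-exon form (CGGAG).
Ywhaq promoter: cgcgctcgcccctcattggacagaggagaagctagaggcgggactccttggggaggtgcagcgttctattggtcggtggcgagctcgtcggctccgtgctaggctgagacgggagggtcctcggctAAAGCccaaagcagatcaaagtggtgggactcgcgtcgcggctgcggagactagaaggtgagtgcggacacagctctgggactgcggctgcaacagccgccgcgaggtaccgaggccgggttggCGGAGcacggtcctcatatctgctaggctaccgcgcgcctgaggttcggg
Promoter windows were found for Ywhae, Ywhag, Ywhah, Ywhaq and Sfn. On both strands they were searched for 4 motifs, and the share of all 32851 windows of this kind that hold each motif is given beside it. CCAAT, the CCAAT box (37.4% of windows), occurred 2 times in Ywhaq, both on the opposite strand, 1 time each in Ywhag and Sfn, and not in Ywhae or Ywhah. GGGCGG, the GC box (35.7% of windows), occurred 6 times in Ywhah, 4 times in Ywhag and 2 times in Ywhae, and not in Ywhaq or Sfn, with overlapping matches counted. TTCNNNNGAA, the form of site bound by STAT6, the factor that IL-4 activates (6.95% of windows), was not found in any of the 5 windows. TGACNNNGC, the antioxidant response element (12.4% of windows), was not found in them either.

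Around the family, 48 known client proteins were examined, of which 40 passed the filter. None of the 40 was called by limma, and at an unadjusted p below 0.05 1 was higher and 13 were lower with CBR-5884, beside 780 higher and 1336 lower of the 10776 genes tested. By fragments, Pfkfb2, a regulator of glycolysis, was called higher (limma adjusted p = 0.032) and Tbc1d1 lower (limma adjusted p = 0.0278). By that measure 291 of the 10776 genes tested were called, 110 higher and 181 lower. Pfkfb2 was also called higher with reference transcripts only, where 50 of 10776 were called, 20 of them higher. Both clients were picked out after their values were seen. The client median log2 difference was -0.10, with 12 positive and 28 negative, beside -0.03 over all genes tested. The groups did not overlap for 2 higher and 20 lower clients of 40, beside 16.6% higher and 24.9% lower of all genes tested. Uvrag, an autophagy protein, was at 12.6, 11.8 and 12.9 FPKM with CBR-5884, against 18.2 and 18.9 FPKM with solvent, a log2 difference of -0.54 (SE 0.059, limma adjusted p = 0.0848). Tbc1d1, a RAB regulator under AKT and AMPK, was at 15.2 ± 1.62 FPKM with CBR-5884 and 20.4 ± 0.0998 FPKM with solvent, and Zfp36l1, an mRNA decay factor, was at 36.8 ± 3.66 FPKM with CBR-5884 and 48.6 ± 0.108 FPKM with solvent (SD, n = 3 and 2). Their limma adjusted p-values were 0.152 and 0.159, and all CBR-5884 libraries were below both solvent libraries. Among clients above 0 in every library, the 3 highest log2 differences were those of Tsc2, Lrrk2 and Ndel1. Tsc2, the brake on mTORC1, differed by 0.36, Lrrk2, a kinase, by 0.17, and Ndel1, a dynein regulator, by 0.09. Pfkfb2 is not in that ranking. Its log2 difference was 3.58 (SE 0.51) by fragments and 1.66 (SE 0.067) with reference transcripts only, and its FPKM by library is not given here. Tsc2 was at 32.7 FPKM in CBR-5884 replicate 3, 14 and 13.8 FPKM in CBR-5884 replicates 4 and 5, and 15.1 and 13.5 FPKM with solvent, so its difference rests on 1 library.

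Of 21 kinases that write 14-3-3 sites, 20 passed the filter and none was called by limma, with 4 higher and 2 lower at an unadjusted p below 0.05, beside the 780 and 1336 of 10776 given above. By fragments, 1 kinase, Akt2, was called lower (limma adjusted p = 0.0404), beside 291 genes called of 10776 by that measure, 181 of them lower. The groups did not overlap for 6 higher and 5 lower kinases of 20, beside 16.6% and 24.9% of all genes tested. Their median log2 difference was -0.03, equal to that of all genes tested to 2 decimals, with 9 positive and 11 negative. Sgk1, a kinase of FOXO and NEDD4L sites, was at 164.9, 169.1 and 152.0 FPKM with CBR-5884, against 131.1 and 122.9 FPKM with solvent, a log2 difference of 0.35 (SE 0.067, limma adjusted p = 0.132). Prkaa1, a catalytic subunit of AMPK, was at 19.4 ± 0.984 FPKM with CBR-5884 and 15.8 ± 0.203 FPKM with solvent (SD, n = 3 and 2, limma adjusted p = 0.141). Akt2 was at 33.4 ± 0.893 FPKM with CBR-5884 and 40.2 ± 1.77 FPKM with solvent (SD, n = 3 and 2, limma adjusted p = 0.135). In these 3 kinases the groups did not overlap. Mark2 differed by 0.18 with overlapping groups, Mark3 by -0.23 with overlapping groups and Prkd3 by -0.24 without overlap.

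All 7 phosphatase catalytic subunits passed the filter and none was called by limma, beside 0.223% of all genes tested. None had an unadjusted p below 0.05, beside 780 higher and 1336 lower of the 10776 genes tested. The phosphatase median log2 difference was 0.08, with 5 positive and 2 negative, beside -0.03 and 4770 positive of 10776. The groups did not overlap for 2 higher and 1 lower phosphatase of 7, beside 16.6% higher and 24.9% lower of all genes tested. Ppp3ca, a calcineurin subunit, at 0.10, Ppp1cb, at 0.09, and Ppp1cc, at 0.09, were the 3 highest. Ppp3cb, at 0.07, Ppp2cb, at -0.05, and Ppp1ca, at -0.10, were the 3 lowest. Ppp1ca was at 203.8, 208.6 and 207.0 FPKM with CBR-5884, against 222.9 and 218.9 FPKM with solvent, lower without overlap. Ppp3ca and Ppp1cb were higher without overlap. Ppp3ca was at 43.9, 43.3 and 45.8 FPKM with CBR-5884, against 40.4 and 41.9 FPKM with solvent. Ppp1cb was at 27.4, 28.3 and 27.1 FPKM with CBR-5884, against 24.7 and 27.0 FPKM with solvent.

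Genes with a profile like that of Ywhaq were sought among 5710 genes with a mean of at least 10 FPKM and a value above 0 in all 5 libraries. Likeness was the root mean square difference of log2(FPKM + 1), with each gene centred on its own mean, over the 5 libraries. The nearest were Rbbp5 (0.00999), a histone methyltransferase subunit, Bach1 (0.011), a transcriptional repressor that heme regulates, Ldah (0.0143), a lipid droplet protein, Pcf11 (0.0148), a transcription termination factor, and Fam168a (0.0152). Since likeness was measured over the same 5 libraries, the choice itself keeps their difference between the groups near that of Ywhaq.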

How the data were processed

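Total RNA libraries, made with a directional kit and read as single reads of 75 bases per the labels' protocols, were processed by the authors with Bowtie2, TopHat2 and Cufflinks on mm10 (GRCm38), per the submitters' processing notes. For tool versions, annotation release and strand setting, nothing is given in the sources used here. The deposited FPKM values, in a text field of each transcript record, were estimated by the authors in each library separately, per the file contents.

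Transcripts were assigned to genes through GENCODE M21 (99.46% of 71311 reference transcripts). Other reference identifiers were assigned once for all libraries, by a gene identifier in a deposited file or by exon overlap. Assembled transcripts of at least 200 bases went to the gene on their strand that covered at least 50% of their exonic bases. Transcripts left without a gene held 64.0% to 70.3% of summed FPKM but 8.495% to 10.16% of implied fragments. Fragments were FPKM times length, so depth is implied and not counted, and the number of libraries limits precision. No values were normalised between libraries.

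Group differences were fitted on log2(FPKM + 1) with limma 3.58.1 in R 4.3.3 (lmFit, then eBayes with trend, as a two-sided test, Benjamini-Hochberg over 10776 genes with a mean of at least 1 FPKM, called at 0.05), without a replicate block, and tested on simulated data. Fold changes on this scale understate the change of low genes. Coding sequences were aligned with MAFFT 7.526 and pseudogenes searched with BLAST 2.17.0. The members and all gene lists were chosen with earlier results of these data known. Named were the 6 members, Sfn, the called genes of each list, its 3 highest and 3 lowest differences among genes above 0 in every library, and the 5 profiles most like Ywhaq. Alternatives were 2 other pseudocounts, 3 scalings, 3 ways of summing transcripts, other filters, no variance trend, a replicate block, each library left out and, added after the data were seen, another assignment of unmatched identifiers. Ywhab and Ywhaz are not in the promoter table used here. No genome sequence was used.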

Additional observations from a re-analysis of the deposited data

Results flagged for a closer look

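One value outside the sums above was above 0 in a single library. An assembled transcript of 322 bases beside the 3′ end of Ywhaz (chr15:36770260-36770581, GRCm38) was at 31.7 FPKM in CBR-5884 replicate 5, with a 95% interval of 25.2 to 38.3 FPKM in the deposited file. It was not listed in the other 4 libraries and was assigned to no gene. In CBR-5884 replicates 3 and 4 and solvent replicate 5 the assembled Ywhaz transcript itself runs on through these bases. The part of this transcript in the level of Ywhaz was not tested.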

How the results depend on the processing

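The number of genes called, 24, became 50 with reference transcripts only, 46 with the most abundant reference transcript, 291 with implied fragments, 38 without a filter and 9 at a mean of at least 5 FPKM, and lay between 21 and 94 when each library was left out (94 without solvent replicate 3, 64 without solvent replicate 5). With the replicate block it was 3, of which 2 were among the 24; the shared replicate numbers 3 and 5 name no common batch in the labels, and the correlation of their deviations was 0.0876. The directions of Ywhah, Ywhaz and Ywhab held under the pseudocounts, scalings, filters, block and left-out libraries tried, and turned with reference transcripts. Ywhab was at 0.278 on the TPM scale, 0.265 with median ratios, 0.286 after quantile normalization, 0.0961 by fragments and -0.582 by reference or most abundant reference transcript. Those last 2 settings gave -0.384 for Ywhae and -0.816 for Ywhah, and -0.262 and -2.27 for Ywhaz. Ywhah was at 0.25 by fragments and Ywhag at 0.097 after quantile normalization. Ywhaq was at 0.048 on the TPM scale, 0.0502 after quantile normalization, 0.514 with reference transcripts, 1.22 with the most abundant one, 0.657 with identifiers taken from each file, and -0.0339 to 0.0417 with a library left out. The order of levels kept 3 of 5 neighbour pairs, but 1 with the most abundant reference transcript, 2 with reference transcripts only, 2 by fragments and 4 without CBR-5884 replicate 5. The 6-exon share with CBR-5884, 36.1%, was 28.9% by fragments; with solvent, 62.7%, it was 36.0% to 89.4% with either library left out. The client median, -0.10, was -0.0585 on the TPM scale, -0.0685 with median ratios, -0.0578 after quantile normalization, -0.149 and -0.124 by reference and most abundant transcript, -0.0706 by fragments, -0.147 at 5 FPKM and -0.126 to -0.0913 with a library left out. The kinase median was 0.0123, 0.000528 and 0.00843 on the 3 scalings in that order, -0.0663 by fragments, -0.00643 at 5 FPKM and -0.0428 to 0.00838 with a library left out. The phosphatase median was 0.121, 0.107 and 0.115 on the 3 scalings and 0.0359 to 0.098 with a library left out. The cause of these shifts was not tested, and 2 solvent libraries limit every spread.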
